A study of Mus musculus with 15 samples.

Results

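The genes described here are 37 homeobox patterning factors outside the Hox clusters, picked by name from the 28876 genes of the expression table: Six2 to Six6 and the Iroquois (Irx1 to Irx6), Distal-less (Dlx1 to Dlx6), LIM homeobox (Lhx2, Lhx3, Lhx4, Lhx5, Lhx6 and Lhx8), Pbx (Pbx2 to Pbx4), Meis (Meis1 to Meis3), Islet (Isl1, Isl2), Msx (Msx1, Msx2), Pitx (Pitx1, Pitx3) and Barx (Barx1, Barx2) families. RNA was sequenced from C57BL/6 mouse embryos, from their aorta-gonad-mesonephros (AGM) region, in 5 groups of 3 libraries; the labels give no treatment or engineered allele. E9 AoD and E9 AoV are the dorsal and the ventral part of the dorsal aorta with surrounding tissue at E9.5. E10 AoD and E10 AoV are the same parts at E10.5, and E10 UGR is the urogenital ridges at E10.5. Each library was made from tissue pooled over between 15 and 34 embryos, so a value is an average over embryos and over all cells of the piece, and fewer cells of a type and less RNA per cell cannot be told apart.

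Homeobox proteins bind DNA through the homeodomain and set regional identity in the embryo. Irx genes act in the neural tube and mesoderm, Lhx3, Lhx4 and Isl1 in motor neuron specification, Isl1 also in splanchnic mesoderm, Dlx genes in the branchial arches, limb ectoderm and forebrain, Msx genes downstream of BMP signals, Pitx1 in the hindlimb field, Barx1 in stomach mesenchyme and Six2 in nephron progenitors. Pbx and Meis proteins are TALE-class homeodomain factors that bind DNA together with Hox and other homeodomain proteins.

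Levels are given in RPM, the authors' reads per megaread assigned to genes, with the SD and n = 3 where means are given. Depth, worked out from the step between low values, ran from 33.7 to 48.6 megareads a library. A count of 0 still allows up to 3 reads by counting error alone, which is a level of 0.0618 to 0.089 RPM, depending on the library. A gene was tested when it reached 0.5 RPM in at least 1 library, which 18553 genes and 32 of the 37 members did. The test was limma with an intensity trend on log2(RPM + 0.1), which understates the change of low genes; log2 fold changes are on that scale and come with a standard error (SE). Calls required a Benjamini-Hochberg adjusted p below 0.05 together with a log2 fold change of at least 1 in size. Across genes, replicate libraries were correlated with a Pearson r of at least 0.993. Nephric duct and mesonephros markers summed to between 408.2 and 414.7 RPM in E10 UGR and to at most 112.6 RPM elsewhere, and neural tube markers to between 305.2 and 524.7 RPM in E9 AoD, between 175.1 and 236.6 RPM in E10 AoD and at most 36.8 RPM in the other groups. Gut endoderm and liver markers summed to between 546.9 and 775.3 RPM in E9 AoV and at most 67.0 RPM elsewhere. The part of these neighbouring tissues in the results below was not tested.

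Promoter sequences, from 250 bases before to 50 bases after the start of transcription, were taken from RefSeq (build GRCm38.p6) for the pairs of related members that moved together in the results below: Dlx1 and Dlx2, which rose in E10 AoD, Lhx3 and Lhx4, which were higher dorsally, and Msx1 and Msx2, which fell between the stages. Capitals mark matches, on either strand, to TAATTA (a homeodomain core), TGACAG (a Meis core), TATAAA (the core of a TATA box) or GGGCGG (a GC box).
Dlx1 promoter, chr2:71529195-71529494, plus strand: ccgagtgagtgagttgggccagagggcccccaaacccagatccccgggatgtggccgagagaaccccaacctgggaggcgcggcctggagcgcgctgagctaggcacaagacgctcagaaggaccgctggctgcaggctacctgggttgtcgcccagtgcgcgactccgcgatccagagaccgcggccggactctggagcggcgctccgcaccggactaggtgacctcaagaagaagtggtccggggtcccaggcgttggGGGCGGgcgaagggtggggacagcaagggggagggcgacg
Dlx2 promoter, chr2:71546705-71547004, minus strand: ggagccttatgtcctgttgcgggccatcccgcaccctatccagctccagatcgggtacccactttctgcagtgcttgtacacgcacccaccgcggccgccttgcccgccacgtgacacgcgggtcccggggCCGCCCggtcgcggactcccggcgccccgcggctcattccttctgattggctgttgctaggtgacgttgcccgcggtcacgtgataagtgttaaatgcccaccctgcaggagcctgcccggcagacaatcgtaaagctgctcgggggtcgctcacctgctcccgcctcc
Lhx3 promoter, chr2:26206526-26206825, minus strand: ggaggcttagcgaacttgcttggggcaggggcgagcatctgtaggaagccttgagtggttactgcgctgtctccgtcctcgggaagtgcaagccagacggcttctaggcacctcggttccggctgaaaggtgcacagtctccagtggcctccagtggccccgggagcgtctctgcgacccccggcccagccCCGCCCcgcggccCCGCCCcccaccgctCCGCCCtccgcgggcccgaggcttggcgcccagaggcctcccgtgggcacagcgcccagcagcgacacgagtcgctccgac
Lhx3 promoter, chr2:26208200-26208499, minus strand: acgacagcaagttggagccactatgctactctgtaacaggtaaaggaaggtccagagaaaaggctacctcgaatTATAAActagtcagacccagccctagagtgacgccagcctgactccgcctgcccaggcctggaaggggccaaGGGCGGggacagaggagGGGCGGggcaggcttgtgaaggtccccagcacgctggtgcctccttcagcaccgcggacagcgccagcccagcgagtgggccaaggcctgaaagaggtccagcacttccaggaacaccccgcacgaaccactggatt
Lhx4 promoter, chr1:155741978-155742277, minus strand: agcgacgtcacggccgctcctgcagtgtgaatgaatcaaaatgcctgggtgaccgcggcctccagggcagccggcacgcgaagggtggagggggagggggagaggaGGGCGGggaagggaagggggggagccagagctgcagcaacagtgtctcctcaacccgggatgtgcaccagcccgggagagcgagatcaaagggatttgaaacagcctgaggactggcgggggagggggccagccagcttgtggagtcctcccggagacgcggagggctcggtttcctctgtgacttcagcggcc
Msx1 promoter, chr5:37824536-37824835, minus strand: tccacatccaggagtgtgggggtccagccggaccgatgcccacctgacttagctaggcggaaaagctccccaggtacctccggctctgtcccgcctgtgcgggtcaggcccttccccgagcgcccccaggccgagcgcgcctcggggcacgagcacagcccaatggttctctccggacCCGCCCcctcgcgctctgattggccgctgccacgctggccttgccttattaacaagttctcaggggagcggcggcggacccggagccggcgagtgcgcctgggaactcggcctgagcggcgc
Msx2 promoter, chr13:53472731-53473030, minus strand: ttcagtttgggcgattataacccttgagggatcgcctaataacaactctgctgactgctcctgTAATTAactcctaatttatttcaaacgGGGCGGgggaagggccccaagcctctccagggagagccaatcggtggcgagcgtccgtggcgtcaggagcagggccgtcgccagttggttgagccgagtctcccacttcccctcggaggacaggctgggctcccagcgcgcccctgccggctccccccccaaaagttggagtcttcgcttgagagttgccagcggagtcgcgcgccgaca
Lhx3 has 2 starts in RefSeq. RefSeq entries matched 26 of the 37 members, with 31 promoters, of which 21 (67.7%) held GGGCGG, against 35.7% of all 32851 promoters of this length. TAATTA occurred in 1 member promoter, that of Msx2, and in 5.29% of all promoters. TGACAG occurred in 5 member promoters (16.1%, against 19.2% of all) and TATAAA in 3 (9.68%, against 13.6%). Members' promoters had a median of 20.0 CG dinucleotides, against 7.0 over all promoters, and GGGCGG itself holds a CG. A match is a description of the letters and not a site.

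Between the stages these genes went down more often than up, in both parts of the aorta. In the ventral part 13 of the 32 tested members fell and 0 rose by limma, where 4.99% of all tested genes fell and 6.04% rose. At an unadjusted limma p under 0.05 and with no fold threshold, 7 of the members were higher and 19 lower at E10.5 ventrally. The share of all tested genes at that threshold was not computed. In the dorsal part 15 fell and 3 rose (Dlx1, Dlx2 and Pitx3), where 4% of all tested genes fell and 8.6% rose. The median log2 fold change of the members was -0.73 in the ventral and -0.98 in the dorsal part, against -0.0016 and -0.0019 over all tested genes. With a pseudocount of 1 RPM in place of 0.1, the ventral falls of Dlx4, Dlx5 and Barx2 and the dorsal changes of Dlx4, Dlx5, Lhx5, Isl2 and Pitx3 missed the fold threshold. Of the 32 members, 11 had their lowest group mean in E10 AoD, and the share of all tested genes that did so was not computed. The highest group mean of the 32 lay in E9 AoD for 11, in E9 AoV for 10, in E10 AoV for 6, in E10 AoD for 3 and in E10 UGR for 2. Over all tested genes E9 AoD was the highest group for 29.6%, E9 AoV for 13.6%, E10 AoV for 19.1%, E10 AoD for 15.9% and E10 UGR for 21.8%, so the count for E9 AoD lay near the background.

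**Figure D1:**
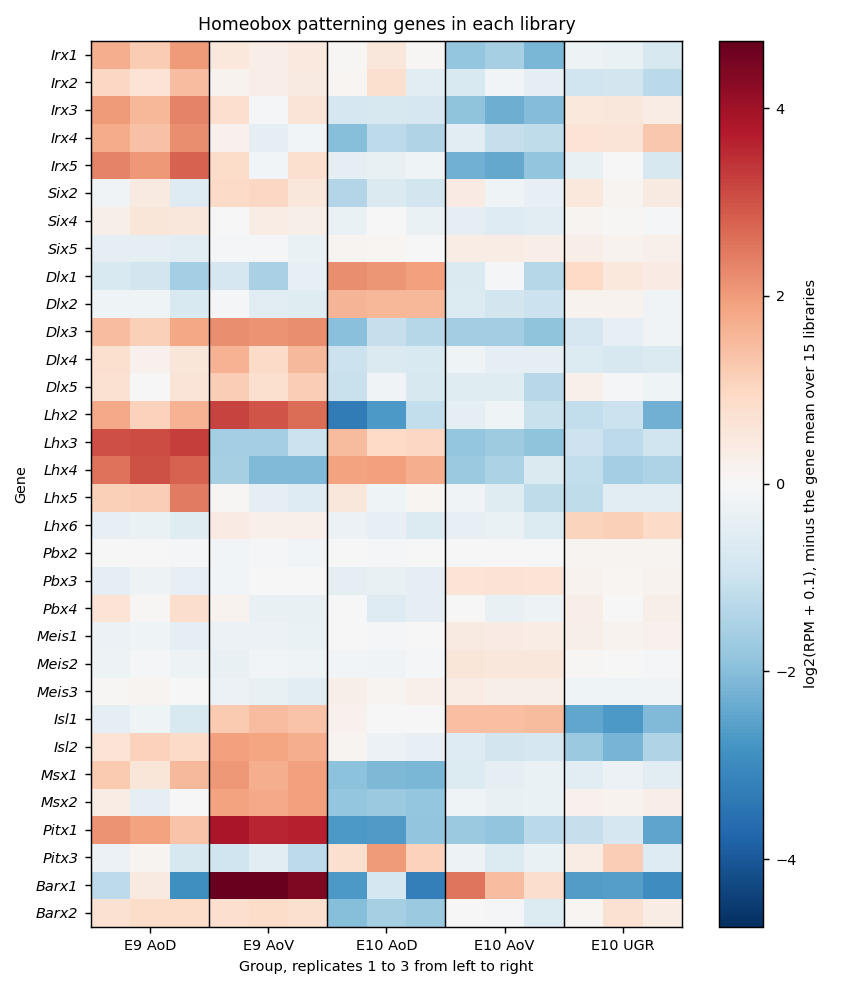
Level of the 32 tested members (rows) in the 15 libraries (columns, by group), as log2(RPM + 0.1) minus the gene's mean over the libraries, red for above and blue for below. Irx genes are darkest red in E9 AoD, Pitx1, Lhx2 and Barx1 in E9 AoV, and Dlx1 and Dlx2 in E10 AoD, while Pbx2 and the Meis genes stay pale throughout.

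Pitx1, the hindlimb factor, showed the strongest decrease of the ventral part among the members. In E9 AoV it was at 95.8, 79.4 and 83.3 RPM, and in E10 AoV at 1.87, 1.69 and 2.65 RPM. In E9 AoD it was at 28.4, 24.6 and 16.4 RPM, in E10 AoD at 0.897, 0.928 and 1.7 RPM, and in E10 UGR at 2.99, 3.68 and 1.07 RPM. Every library of E9.5 was above every library of E10.5, and the fall was -5.33 ± 0.358 (SE) on the log2 scale in the ventral part (limma adjusted p = 2.41e-08) and -4.21 ± 0.358 in the dorsal part (limma adjusted p = 1.66e-07). Limb bud markers, a list of 7 genes without members, summed to between 287.8 and 303.9 RPM in E9 AoV and to between 218.6 and 222.4 RPM in E10 AoV, where 3 fell, led by the hindlimb gene Tbx4, and 1 rose (Fgf10, 1.25 on the log2 scale). Dorsally the sum was higher at the later stage, between 177.1 and 195.6 RPM in E10 AoD against between 110.6 and 140.8 RPM in E9 AoD, although 5 of the 7 genes fell there and 1 rose (Hand2).

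Msx1 and Msx2, repressors that follow BMP signals in many tissues, fell in both parts. Msx1 was at 54.3, 44.1 and 50.6 RPM in E9 AoV and at 8.38 and 9.57 RPM in replicates 1 and 2 of E10 AoV, whose mean was 9.48 ± 1.06 RPM (SD, n = 3). In the dorsal part it was at 31.0, 19.6 and 38.2 RPM at E9.5 and at 3.41, 2.94 and 2.86 RPM at E10.5, and E10 UGR held 9.04, 10.8 and 9.26 RPM. The stages did not overlap in either part, and the log2 fold changes were -2.38 ± 0.18 (SE) ventrally (limma adjusted p = 7.96e-08) and -3.18 ± 0.18 dorsally (limma adjusted p = 3.56e-09). Msx2 was at 29.3, 26.7 and 29.4 RPM in E9 AoV, at 6.67, 5.99 and 6.24 RPM in E10 AoV, 9.93, 5.59 and 7.89 RPM in E9 AoD, 2.13, 2.23 and 2.08 RPM in E10 AoD and 8.92, 8.68 and 9.69 RPM in E10 UGR. E9 AoV stood above all other groups, and the fall was -2.16 ± 0.144 ventrally and -1.78 ± 0.144 dorsally (limma adjusted p = 2.32e-08 and 1.05e-07). At E10.5 both genes were higher ventrally than dorsally, by 1.59 ± 0.18 for Msx1 and 1.51 ± 0.144 for Msx2 (limma adjusted p = 5.19e-06 and 9.41e-07).

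Lhx2, a LIM factor of forebrain and limb bud, followed the same course. It was at 17.6, 15.4 and 12.2 RPM in E9 AoV and at 1.37, 1.59 and 0.838 RPM in E10 AoV. In the dorsal part it went from 6.76, 4.03 and 5.99 RPM to 0.102, 0.201 and 0.781 RPM, and E10 UGR held 0.77, 0.864 and 0.31 RPM. The libraries of E9.5 were all above those of E10.5, with log2 fold changes of -3.5 ± 0.447 (SE) ventrally and -3.88 ± 0.447 dorsally (limma adjusted p = 1.57e-05 and 3.61e-06). The ventral excess at E9.5, 1.43 ± 0.447, had a limma adjusted p of 0.0162, and of 0.0618 without E9 AoD replicate 2. Without E10 AoD replicate 3, the highest of its group, the dorsal fall was -4.5 and the ventral excess at E10.5 was 2.43, in place of 1.81. With a pseudocount of 1 RPM the ventral excess at E10.5 was 0.75, below the fold threshold.

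**Figure D2:**
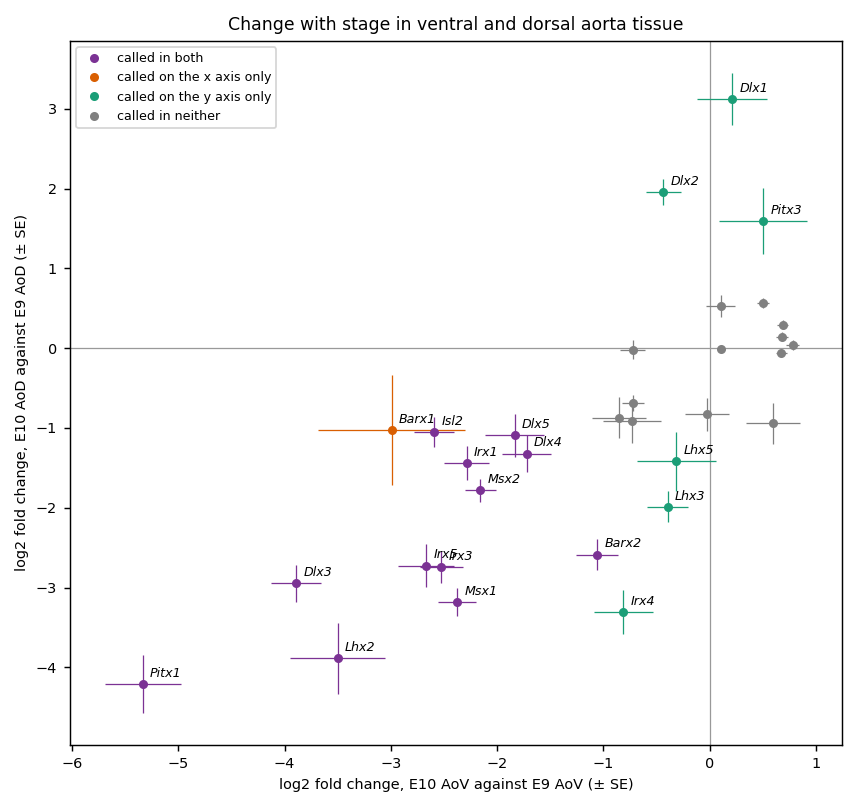
Log2 fold change of each tested member, E10.5 against E9.5, ventrally (x axis) and dorsally (y axis), on the log2(RPM + 0.1) scale, with SE bars and colours by call; called genes are named. Most named genes lie in the lower left, down in both parts, while Dlx1, Dlx2 and Pitx3 lie high on the y axis near 0 on the x axis.

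The Distal-less genes split. Dlx1 and Dlx2, neighbours on chromosome 2 (NCBIM37 chr2:71366170-71372038, plus strand, and chr2:71381466-71384811, minus strand, 9.43 kb apart), rose in the dorsal part, where Dlx3, Dlx4 and Dlx5 fell. Dlx1 was at 0.988, 0.862 and 0.489 RPM in E9 AoD and at 8.05, 7.35 and 6.64 RPM in E10 AoD. It was at 0.912, 0.509 and 1.24 RPM in E9 AoV, at 1.01, 1.57 and 0.591 RPM in E10 AoV and 3.28, 2.41 and 2.24 RPM in E10 UGR. The libraries of E10 AoD were above all others, and the rise was 3.13 ± 0.326 (SE) on the log2 scale (limma adjusted p = 1.35e-06). In the ventral part the difference between stages was 0.21 ± 0.326 with overlapping libraries (limma adjusted p = 0.633).

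Dlx2 was at 4.18, 4.14 and 2.86 RPM in E9 AoD and at 14.7, 14.4 and 14.4 RPM in E10 AoD. The other groups held 4.54, 3.27 and 3.18 RPM (E9 AoV), 3.04, 2.61 and 2.33 RPM (E10 AoV) and 5.45, 5.45 and 4.34 RPM (E10 UGR). The dorsal rise was 1.95 ± 0.163 (limma adjusted p = 1.36e-07), again with no overlap. The change with stage in the ventral part minus that in the dorsal part, the interaction of stage and position, was -2.91 ± 0.461 for Dlx1 and -2.39 ± 0.23 for Dlx2 (limma adjusted p = 0.000239 and 2.77e-06). Of the exon bases of Dlx1, 6.21% overlap the opposite-strand gene Dlx1as, and the protocol is not stated to keep strand. Sympathoadrenal and neural crest markers, a list without members, summed to between 376.2 and 445.3 RPM in E10 AoD and at most 164.3 RPM elsewhere. Of its 9 genes, 8 rose in the dorsal part, and 5 rose and 0 fell in the ventral part, where Dlx1 and Dlx2 were not called. The part of these markers in the levels of Dlx1 and Dlx2 was not tested.

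Dlx3, which acts in placenta and ectoderm, fell in both parts. It was at 3.53, 3.34 and 3.57 RPM in E9 AoV and at 0.156, 0.153 and 0.116 RPM in E10 AoV, and at 2.11, 1.64 and 2.74 RPM in E9 AoD and 0.102, 0.276 and 0.213 RPM in E10 AoD. E10 UGR held 0.356, 0.514 and 0.62 RPM, so every library of E9.5 was above every library of E10.5. The log2 fold changes were -3.89 ± 0.237 (SE) and -2.95 ± 0.237 (limma adjusted p = 9.61e-09 and 9.8e-08). The lower level in E10 AoD than in E10 UGR, -1.03 ± 0.237, missed the fold threshold under both other scalings and without E10 AoD replicate 1 (-0.77), E10 UGR replicate 2 (-0.99) or E10 UGR replicate 3 (-0.88).

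Dlx4, 15.2 kb from Dlx3 on chromosome 11, was near the detection limit at E10.5. In reads back-calculated from RPM and rounded, it summed to 2 over the E10 AoD libraries against 24 over E9 AoD, a ratio of 11.7 (95% exact counting interval 2.89 to 102) in favour of E9.5. In the ventral part it had 7 reads against 56, a ratio of 7.47 (95% exact counting interval 3.4 to 19.4). Both falls were called (log2 fold changes -1.32 ± 0.23 and -1.72 ± 0.23, limma adjusted p = 0.000187 and 2.46e-05). Dlx4 was tested only because of E9 AoV replicate 1 (0.532 RPM), a library of the group where it was highest. The ventral call is therefore not independent of that filter. Dlx5 fell from 0.99 ± 0.174 to 0.21 ± 0.0817 RPM (SD, n = 3) ventrally and from 0.633 ± 0.178 to 0.248 ± 0.115 RPM dorsally. The dorsal log2 fold change of Dlx5, -1.09 ± 0.275 (SE), missed the fold threshold without E9 AoD replicate 1 (-0.96) or E10 AoD replicate 1 (-0.89).

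All 5 tested Iroquois genes had their highest mean in E9 AoD. With stage 4 of the 5 fell dorsally and 3 ventrally, and 4 were lower in E9 AoV than in E9 AoD and 3 lower in E10 AoV than in E10 AoD. They lie in 2 clusters, Irx1, Irx2 and Irx4 on chromosome 13 and Irx3, Irx5 and Irx6 on chromosome 8. Irx3 (NCBIM37 chr8:94322428-94325553, minus strand), which sets progenitor domains in the ventral neural tube, was at 58.3, 42.7 and 73.7 RPM in E9 AoD and at 8.38, 8.63 and 8.22 RPM in E10 AoD. It was at 24.9, 13.8 and 22.2 RPM in E9 AoV, at 3.79, 2.85 and 3.44 RPM in E10 AoV and 20.3, 21.1 and 18.4 RPM in E10 UGR. All libraries of E9 AoD stood above all others, and the urogenital ridges stood above both aorta parts of E10.5. Irx3 fell with stage by -2.74 ± 0.2 (SE) dorsally and -2.53 ± 0.2 ventrally (limma adjusted p = 3.81e-08 and 1.27e-07), and was lower in E9 AoV than in E9 AoD by -1.52 ± 0.2 (limma adjusted p = 1.85e-05).

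Irx5, its neighbour, was at 17.8, 14.4 and 24.6 RPM in E9 AoD and at 2.48, 2.69 and 2.99 RPM in E10 AoD. It was at 6.31, 3.12 and 5.87 RPM in E9 AoV, at 0.637, 0.57 and 0.871 RPM in E10 AoV and 2.71, 3.53 and 1.98 RPM in E10 UGR. The stages did not overlap in either part (log2 fold changes -2.72 ± 0.266 and -2.67 ± 0.266, limma adjusted p = 6.85e-07 and 1.29e-06). Irx1 was at 10.7, 7.54 and 13.2 RPM in E9 AoD, at 4.59, 3.97 and 4.48 RPM in E9 AoV, at 3.31, 4.7 and 3.28 RPM in E10 AoD, at 0.83, 1.01 and 0.629 RPM in E10 AoV and 2.71, 2.53 and 1.83 RPM in E10 UGR. E9 AoD was above and E10 AoV below all other groups, with a fall with stage of -2.29 ± 0.214 ventrally and -1.44 ± 0.214 dorsally (limma adjusted p = 7.05e-07 and 4.51e-05). Within E9 AoD, replicate 3 was highest and replicate 2 lowest for Irx1, Irx3 and Irx5, and the neural tube markers summed to 348.6, 305.2 and 524.7 RPM in replicates 1, 2 and 3. The sympathoadrenal and neural crest markers had the same order (86.6, 83.6 and 90.0 RPM). The part of either list was not tested.

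Irx4, best known from the heart ventricle, had a different course by position. It was at 2.26, 1.72 and 3.08 RPM in E9 AoD and at 0.0769, 0.201 and 0.166 RPM in E10 AoD. It was at 0.707, 0.417 and 0.547 RPM in E9 AoV, at 0.389, 0.23 and 0.21 RPM in E10 AoV and 0.998, 0.966 and 1.58 RPM in E10 UGR. The dorsal fall, -3.3 ± 0.278 (SE), exceeded the ventral difference, -0.81 ± 0.278, by an interaction of 2.49 ± 0.394 (limma adjusted p = 0.000237). The differences of Irx2 with stage and between dorsal and ventral were below the fold threshold (-0.91 ± 0.273 for the dorsal change with stage), and its excess in E10 AoD over E10 UGR, 1.15 ± 0.273, fell to 0.83 without E10 AoD replicate 2.

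**Figure D3:**
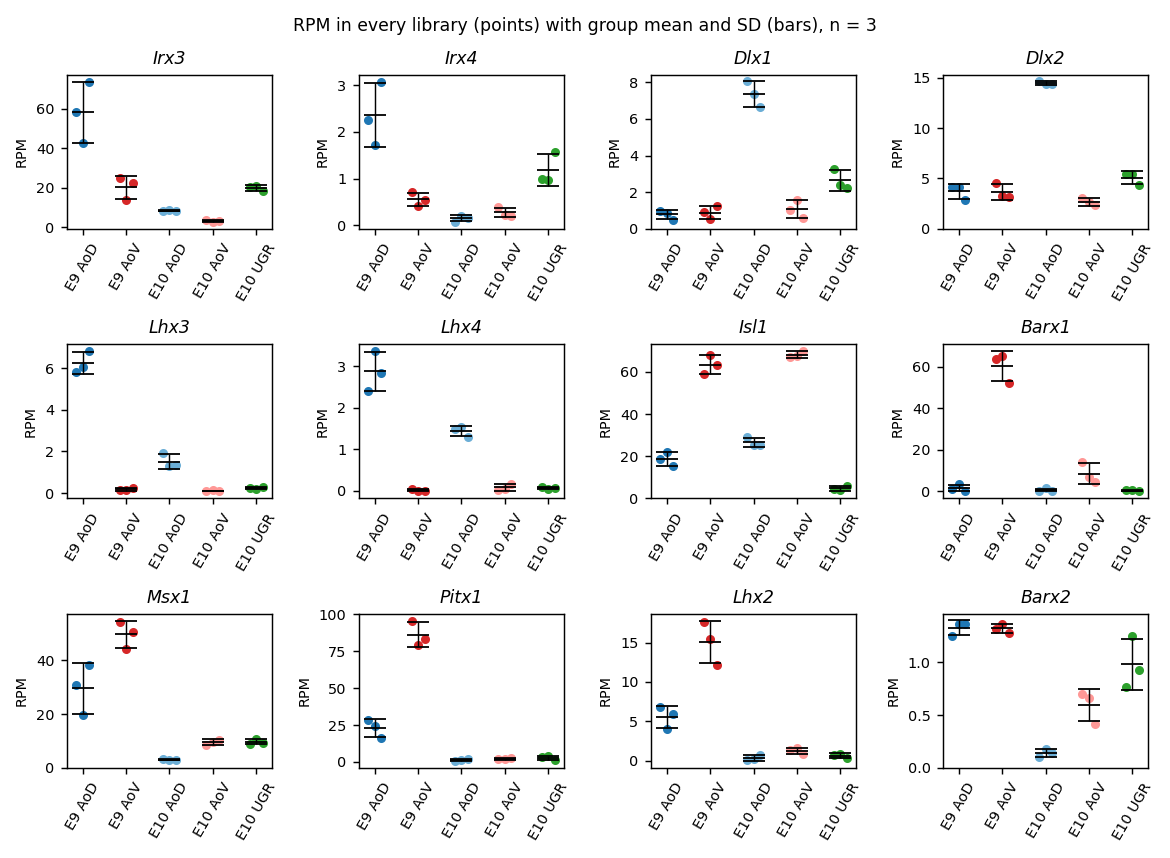
RPM of 12 members in every library (points, replicates 1 to 3 from left to right) with the group mean and SD, on axes that start at 0. Dlx1 and Dlx2 stand apart in E10 AoD, Lhx3 and Lhx4 in both dorsal groups, Isl1 in both ventral groups, and Barx1 and Pitx1 in E9 AoV.

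Between dorsal and ventral, calls went in both directions. At E9.5 5 members were higher ventrally (Isl1, Msx2, Pitx1, Lhx2 and Barx1) and 7 dorsally, where 8.32% and 3.47% of all tested genes were called. At E10.5 7 were higher ventrally and 8 dorsally, where 5.81% and 4.29% of all tested genes were called. The median log2 fold change of the members, ventral against dorsal, was -0.0013 at E9.5 and 0.055 at E10.5, against 0.018 and 0.017 over all tested genes.

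Lhx3 and Lhx4, the LIM factors of motor neurons and the pituitary, marked the dorsal side at both stages. Lhx3 was at 5.8, 6.07 and 6.82 RPM in E9 AoD and 0.137, 0.139 and 0.261 RPM in E9 AoV. At E10.5 it was at 1.92, 1.3 and 1.33 RPM dorsally, 0.104, 0.128 and 0.0931 RPM ventrally and 0.267, 0.206 and 0.282 RPM in the urogenital ridges. Dorsal libraries were above all others at both stages, and the ventral-dorsal log2 fold changes were -4.53 ± 0.195 (SE) and -2.94 ± 0.195 (limma adjusted p = 7.53e-10 and 2.23e-08). The smaller gap at E10.5 came with a dorsal fall of -1.99 ± 0.195, and the interaction was 1.59 ± 0.276 (limma adjusted p = 0.000517).

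Lhx4 was at 2.41, 3.36 and 2.84 RPM in E9 AoD and at 1.49, 1.53 and 1.3 RPM in E10 AoD. In E9 AoV it was at 0.0456, 0 and 0 RPM, in E10 AoV at 0.0259, 0.0512 and 0.163 RPM and in E10 UGR at 0.0889, 0.0411 and 0.0563 RPM. Over the E9 AoV libraries 2 reads, back-calculated in the same way, stood against 356 in E9 AoD, a ratio of 184 (95% exact counting interval 50.6 to 1530), and 7 reads in E10 UGR stood against 174 in E10 AoD, a ratio of 24.2 (95% exact counting interval 11.5 to 61.1). The dorsal change with stage, -0.94 ± 0.256 (limma adjusted p = 0.00581), was below the fold threshold, and the interaction was 1.53 ± 0.362 (limma adjusted p = 0.00521) but 0.75 with a pseudocount of 1 RPM. Lhx5, of forebrain and spinal interneurons, was at 0.642 ± 0.423 RPM (SD, n = 3) in E9 AoD and 0.0847 ± 0.0466 RPM in E9 AoV. Its dorsal fall of -1.42 ± 0.373 (SE) was -0.98 without E9 AoD replicate 3, the library at 1.13 RPM and with the highest neural tube sum. Lhx5 was tested only because of that library, which belongs to its highest group. All 12 neural tube markers were lower in E9 AoV than in E9 AoD, and 11 of the 12 were lower in E10 AoV than in E10 AoD. Motor neuron markers, 4 tested genes without members, summed to between 9.519 and 11.79 RPM in E9 AoD and between 10.39 and 12.55 RPM in E10 AoD. Ventrally they summed to between 3.304 and 3.99 RPM at E9.5 but to between 8.778 and 10.22 RPM at E10.5, just below E10 AoD, and to at most 1.63 RPM in E10 UGR. Of these 4, 3 were lower ventrally and 0 higher at E9.5, and 3 were lower and 1 (Slc5a7) higher at E10.5. The part of either list was not tested.

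Isl1 (NCBIM37 chr13:117088478-117099896, minus strand) and Barx1 (chr13:48758367-48761876, plus strand) marked the ventral side. Ventral Isl1 was at 59.0, 68.1 and 63.1 RPM at E9.5 and at 66.9, 67.6 and 69.9 RPM at E10.5. Dorsally it was at 18.5, 21.8 and 15.2 RPM at E9.5 and 29.1, 25.2 and 25.4 RPM at E10.5, and in E10 UGR at 4.5, 3.74 and 5.77 RPM. The ventral libraries were above the dorsal ones at both stages, by 1.78 ± 0.137 (SE) and 1.36 ± 0.137 on the log2 scale (limma adjusted p = 8.27e-08 and 1.64e-06), and E10 AoV was 3.86 ± 0.137 above E10 UGR (limma adjusted p = 2.07e-10). The ventral change with stage was 0.11 ± 0.137, with overlapping libraries.

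Barx1, the stomach mesenchyme factor, was at 63.8, 65.1 and 52.1 RPM in E9 AoV and at 14.2, 6.7 and 4.33 RPM in E10 AoV. It was at 0.959, 3.22 and 0.235 RPM in E9 AoD, 0.282, 1.28 and 0.166 RPM in E10 AoD and 0.296, 0.308 and 0.225 RPM in E10 UGR. Both ventral groups were above all other groups, by 5.83 ± 0.692 at E9.5 and 3.86 ± 0.692 at E10.5 over the dorsal part (limma adjusted p = 7e-06 and 0.000429), and the ventral fall with stage was -2.99 ± 0.692 (limma adjusted p = 0.00259). The difference at E9.5 was 6.66 without E9 AoD replicate 2 and 5.0 without E9 AoD replicate 3, and that at E10.5 was 4.57 without E10 AoD replicate 2. In E9 AoD, replicate 2 was highest and replicate 3 lowest for Barx1. The gut endoderm and liver markers summed to 57.6, 67.0 and 45.0 RPM and the gut mesenchyme markers to 72.1, 74.6 and 43.5 RPM in replicates 1, 2 and 3. This order was not particular to the gut lists. Coelomic and gonadal epithelium markers (85.9, 117.6 and 48.5 RPM), nephric duct and mesonephros markers (76.4, 105 and 60.8 RPM) and endothelium markers (372.2, 422 and 313 RPM) had it too. In E9 AoV the gut mesenchyme markers, a list without members, summed to between 342.6 and 384.6 RPM and in E10 AoV to between 178.5 and 190.6 RPM. In E10 AoD, where Barx1 was low, they summed to between 173.9 and 216.4 RPM, a range that overlaps that of E10 AoV, and in E10 UGR to between 136.2 and 143 RPM; their part in the level of Barx1 was not tested.

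**Figure D4:**
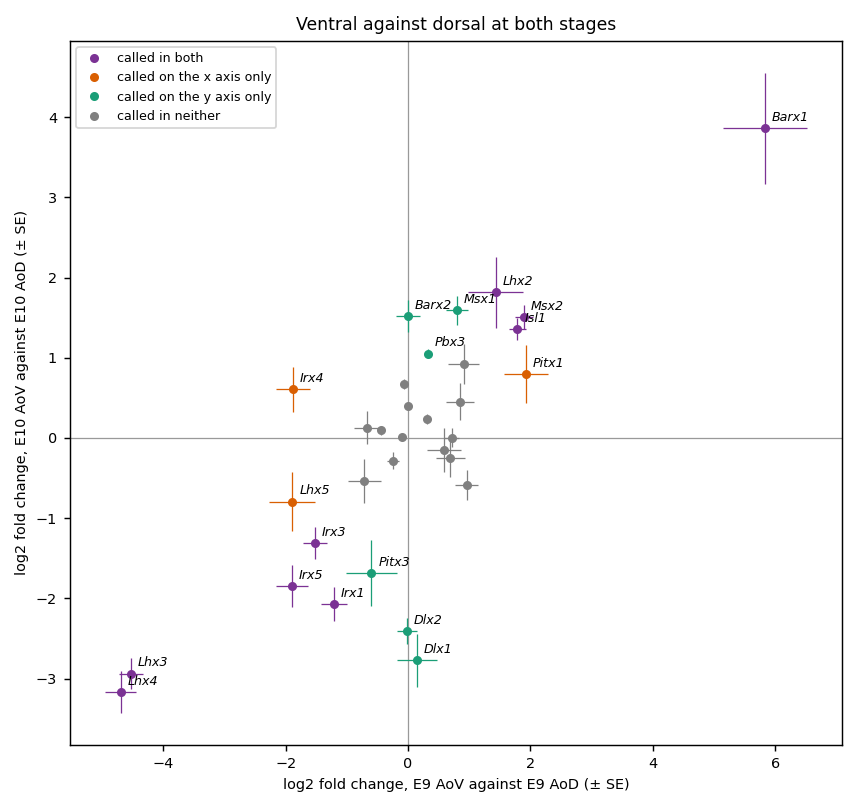
Log2 fold change of each tested member, ventral against dorsal, at E9.5 (x axis) and E10.5 (y axis), on the log2(RPM + 0.1) scale, with SE bars and colours by call; called genes are named. Barx1 and Isl1 lie in the upper right and Lhx3, Lhx4, Irx1, Irx3 and Irx5 in the lower left, while Dlx1 and Dlx2 lie low on the y axis near 0 on the x axis.

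Isl2, which acts with Isl1 in motor neurons, fell with stage in both parts. Ventrally it was at 8.09, 7.63 and 6.82 RPM at E9.5 and at 1.3, 1.07 and 1.12 RPM at E10.5. Dorsally it was at 3.2, 4.41 and 3.91 RPM at E9.5 and 2.2, 1.68 and 1.54 RPM at E10.5, and in E10 UGR at 0.533, 0.37 and 0.704 RPM. The ventral group was the higher at E9.5 and the lower at E10.5, without overlap, though both differences were below the fold threshold (0.96 ± 0.188 and -0.58 ± 0.188, SE). The falls with stage were -2.59 ± 0.188 ventrally and -1.05 ± 0.188 dorsally (limma adjusted p = 5.09e-08 and 0.000232), and the interaction was -1.54 ± 0.266 (limma adjusted p = 0.000485). The dorsal fall was -0.95 without E9 AoD replicate 2 or without E10 AoD replicate 3, and the excess of E10 AoV over E10 UGR, 1.02 ± 0.188, was 0.94 without E10 AoV replicate 1 and 0.82 without E10 UGR replicate 2.

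Barx2 was at 1.25, 1.37 and 1.37 RPM in E9 AoD and 1.32, 1.37 and 1.28 RPM in E9 AoV, that is, at the same level within the spread. At E10.5 it was at 0.102, 0.176 and 0.142 RPM dorsally, 0.7, 0.665 and 0.419 RPM ventrally and 0.77, 1.25 and 0.929 RPM in the urogenital ridges. It fell by more dorsally (-2.59 ± 0.196, SE) than ventrally (-1.06 ± 0.196), with an interaction of 1.53 ± 0.277 (limma adjusted p = 0.000746). The ventral fall was -0.86 without E10 AoV replicate 3, and with a pseudocount of 1 RPM the interaction was 0.48. Pitx3, of lens and midbrain, was low throughout: it rose dorsally from 0.099 ± 0.0582 to 0.527 ± 0.302 RPM (SD, n = 3), 1.59 ± 0.414 (SE) on the log2 scale (limma adjusted p = 0.00423), and 0.46 with a pseudocount of 1 RPM. It was tested only because of E10 AoD replicate 2 (0.871 RPM), a library of its highest group.

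Against the urogenital ridges, 3 members were higher in E10 AoV (Isl1, Isl2 and Barx1) and 7 lower, where 3.84% and 3.73% of all tested genes were called. In E10 AoD 7 were higher and 8 lower, where 4.76% and 6.56% of all tested genes were called. The 2 comparisons share the E10 UGR libraries. Lhx6, of the ventral forebrain and first branchial arch, was at 9.75, 10.2 and 8.76 RPM in E10 UGR, and at most 6.11 RPM in any library of the other groups. It was lower in E10 AoV by -1.46 ± 0.119 (SE) and in E10 AoD by -1.47 ± 0.119 (limma adjusted p = 2.96e-07 and 1.36e-07). Six2, the nephron progenitor factor, was at 6.69 ± 0.886 RPM (SD, n = 3) in E10 UGR and 2.64 ± 0.633 RPM in E10 AoD, -1.33 ± 0.252 (SE) lower dorsally (limma adjusted p = 0.000627). Its highest mean was in E9 AoV, at 9.22 ± 1.5 RPM, and its log2 difference from E9 AoD, 0.91 ± 0.252 (SE), was below the fold threshold. Dlx1 was lower in E10 AoV than in E10 UGR by -1.32 ± 0.326 (SE), and by -0.99 without E10 AoV replicate 3.

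For the interaction, 4 members (Irx4, Lhx3, Lhx4 and Barx2) had a more positive change with stage in the ventral part and 3 (Dlx1, Dlx2 and Isl2) a more negative one, where 4.12% and 6.89% of all tested genes were called. The direction of these 7 genes was the same under every alternative computed. With a pseudocount of 1 RPM the balance turned to 2 positive and 5 negative: Lhx4 and Barx2 missed the fold threshold, and Pitx1 (-1.38, limma adjusted p = 0.0105) and Barx1 (-2.31, limma adjusted p = 0.00625) were called, which with 0.1 RPM had limma adjusted p = 0.117 and 0.159.

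Compared per kilobase of exon, Pbx2 was the highest member, at 61.6 ± 1.83 RPM per kb (SD, n = 3) in E9 AoD and 67.9 ± 0.691 in E10 UGR, and over all libraries it ranked above 93.1% of the tested genes with a length. Meis1, Meis2 and Meis3, the TALE partners of Hox proteins, ranked above between 80.5% and 83.2%. Pbx2 had no call, and its RPM lay between 207 and 250 in all libraries. Of its 50-base windows, 5.23% also occur in transcripts of Gpsm3, whose exons overlap it on the same strand, so its reads may be shared with that gene.

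Meis1, Meis2 and Meis3 had no call at the fold threshold, yet the mean of each was higher in E10 AoV than in E9 AoV. Meis2 was at 440, 426 and 422 RPM in E10 AoV and between 230 and 305 RPM in every other library. Its log2 fold change against E9 AoV was 0.78 ± 0.0591 (SE, limma adjusted p = 7.96e-08) and against E10 AoD 0.67 ± 0.0591 (limma adjusted p = 3.95e-07). Meis1 was at 214, 206 and 204 RPM in E10 AoV and at 130, 130 and 127 RPM in E9 AoV (0.69 ± 0.0528, limma adjusted p = 8.94e-08). Meis3 was at 56.8, 54.4 and 54.9 RPM in E10 AoV against 36.9, 34.8 and 32.0 RPM in E9 AoV (0.68 ± 0.0545, limma adjusted p = 1.43e-07). Of the exon bases of Meis1, 12.1% overlap the opposite-strand gene Gm16140.

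**Figure D5:**
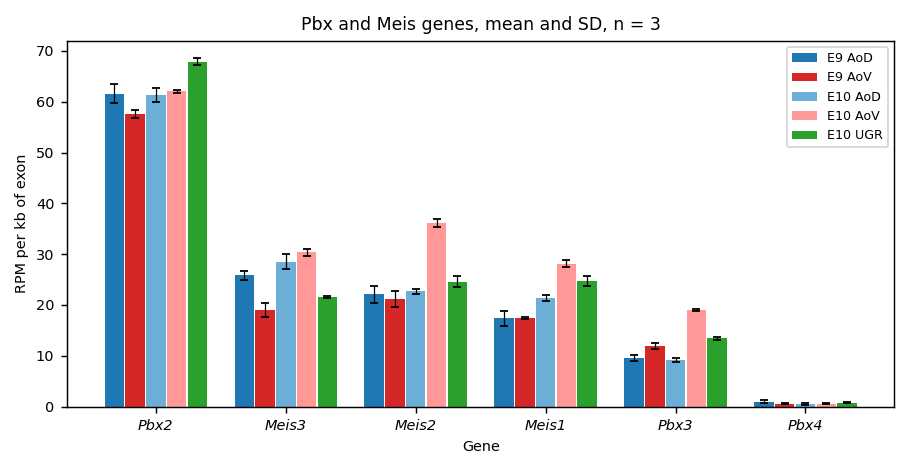
Level of the Pbx and Meis genes per kilobase of exon in the 5 groups (bars, mean with SD over 3 libraries), on an axis that starts at 0. Pbx2 is level across the groups, while Pbx3, Meis1, Meis2 and Meis3 are highest in E10 AoV, Meis3 by little over E10 AoD.

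Of the Pbx and Meis genes, only Pbx3 was called. It was at 121, 123 and 120 RPM in E10 AoV and 56.9, 61.5 and 57.0 RPM in E10 AoD, 1.05 ± 0.0511 (SE) higher ventrally (limma adjusted p = 1.01e-09). Pbx3 was at 76.1 ± 3.82 RPM (SD, n = 3) in E9 AoV and 85.6 ± 1.74 RPM in E10 UGR. Pbx4 lay between 1.25 and 3.48 RPM in all libraries with no call. Six4, a muscle and sensory factor, was at 32.8 ± 3.67 RPM (SD, n = 3) in E9 AoV, while E10 AoV held 19.7 ± 1.22 RPM, and for Six5 the same groups held 36.8 ± 3.12 and 52.0 ± 0.379 RPM. Their log2 fold changes, -0.72 ± 0.103 and 0.5 ± 0.0582 (SE), were below the fold threshold.

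The 5 members not tested were at most 0.441 RPM in any library. Irx6 was at 0.441, 0.183 and 0.356 RPM in E9 AoD and at most 0.0414 RPM, under 3 reads, in every E9 AoV library. E9 AoD was thus above E9 AoV, as for Irx3 and Irx5, and 1.16% of the 50-base windows of Irx6 also occur in Irx3. Dlx6 reached 0.16 RPM, Lhx8 0.176 RPM, Six3 0.0512 RPM and Six6 0.0492 RPM, and Six6 was at 0 in all libraries of E9 AoV, E10 AoD and E10 AoV.

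Other homeobox genes outside Hox, a list of 47 genes with 42 tested, gave a background of the same class. Between the stages 5 rose and 16 fell ventrally, where 6.04% and 4.99% of all tested genes did, and 6 rose and 17 fell dorsally, where 8.6% and 4% did. More falls than rises were thus not particular to the members. At E9.5 8 were higher ventrally and 16 dorsally, where 8.32% and 3.47% of all tested genes were called. At E10.5 the counts were 8 and 12, where 5.81% and 4.29% were called. Tlx2, of the enteric and sympathetic nervous system, rose most in both parts (3.46 and 4.69 on the log2 scale, limma adjusted p = 1.51e-09 and 1.07e-10). Of 37 tested Hox genes, 10 fell ventrally and 17 dorsally, while 3 rose ventrally, and Hoxd13 fell most in the ventral part (-6.65, limma adjusted p = 2.41e-08). Their interaction was called more positive in 12 and more negative in 1, where 4.12% and 6.89% of all tested genes were called.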

How the data were processed

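RNA sequencing measured 15 libraries in 5 groups of 3, taken from GEO's labels as separate samples, made in separate experiments. Per the methods, the authors sequenced 50-base single-end reads of TruSeq libraries, aligned them to NCBI37/mm9 with TopHat and Bowtie 0.12.3 (version per the labels), counted reads over Ensembl genes with GeneProf and deposited RPM, in which a read of several genes was divided among them; strand is not stated. The 12 deposited comparison columns (the authors' DESeq log2 fold changes and adjusted p-values) were not used. Here, limma 3.58.1 (R 4.3.3) was run on log2(RPM + 0.1), all 15 libraries together, 1 mean per group, with Benjamini-Hochberg adjustment. Depth came from the RPM of 1 read. Between 67.6% and 69.6% of low values were whole reads, too few for a count test. The tolerance grew with the number of reads, up to 0.05 reads, and was narrower for values of few reads. The read sums given for single genes are RPM divided by the value of 1 read, rounded. Same-numbered E9 AoV and E9 AoD libraries deviated together (correlations 0.19 to 0.452), so the numbers were taken to pair them. In the other comparisons at least 1 pair was at or below 0.1. Even so, all 3 E10 AoV libraries deviated most with their own number in E10 AoD and in E10 UGR. The main fit left the numbers out. Gene positions and exon lengths came from GENCODE on NCBIM37, with all 37 members found. The members and lists were chosen with earlier results of these data known, and the scripts were tested on simulated data. Members with values in every library were those called with a log2 fold change of at least 2 in size in 1 of 6 comparisons, or called in the interaction; other genes were named as list examples. P-values measure the spread between libraries of pooled embryos.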

Additional observations from a re-analysis of the deposited data

Results flagged for a closer look

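For 7 members the change with stage differed between the ventral and the dorsal part of the aorta by a test of the difference itself (limma interaction on log2(RPM + 0.1), called at adjusted p below 0.05 and a size of at least 1). The ventral minus the dorsal change was 2.49 for Irx4, -2.91 for Dlx1, -2.39 for Dlx2, 1.59 for Lhx3, 1.53 for Lhx4, -1.54 for Isl2 and 1.53 for Barx2. With a pseudocount of 1 RPM those of Lhx4 and Barx2 were 0.75 and 0.48, below the fold threshold, and those of Pitx1 (-1.38) and Barx1 (-2.31) were called as well. The causes were not tested.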

How the results depend on the processing

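Of 90 called values of members, 46 lost their call under no alternative and 0 changed direction under any. Without a fold threshold 25 members, rather than 13, were called in E10 AoV against E9 AoV, 24 rather than 12 in E9 AoV against E9 AoD, 21 rather than 10 in E10 AoV against E10 UGR, and 15 rather than 7 in the interaction. With a test against a log2 fold change of 1 (treat) the counts were 6 in E9 AoV against E9 AoD, 7 rather than 15 in E10 AoV against E10 AoD, 4 in E10 AoV against E10 UGR, 8 rather than 15 in E10 AoD against E10 UGR and 3 in the interaction. With a pseudocount of 1 RPM they were 5 in E10 AoV against E10 UGR and 9 in E10 AoD against E10 UGR. These settings change the threshold or shrink low values by construction. The shares of all tested genes called under them were not computed, so these counts have no background beside them. Leaving out a library cost 14 of 582 values their call, named beside the results. With a replicate block the counts were 13, 18, 12, 15, 10, 15 and 7, the same as without it in every comparison, and the block changed no other call. Low genes are limited by depth: 3 reads are worth up to 0.089 RPM.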
